A study of Homo sapiens with 31 samples.

Results

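Integrins and laminins are the receptors and the ligands with which epithelial cells hold on to their basement membrane. Their genes were taken from the deposited table of FPKM, a measure of mRNA level that corrects for gene length and sequencing depth, by their symbols, which gave 37 members of 19221 genes. They are 18 integrin α chains, 8 integrin β chains and 11 laminin chains. An integrin is a membrane-spanning pair of 1 α and 1 β chain that binds matrix outside the cell and links it to the cytoskeleton inside. A laminin is a cross-shaped secreted trimer of 1 α, 1 β and 1 γ chain, and it is the main adhesive protein of basement membranes. In epithelia, the α6β4 integrin binds laminin that holds the α3 and β3 chains in hemidesmosomes, which anchor keratin filaments, whereas α5β1 and the αv integrins bind fibronectin, vitronectin and other proteins of the interstitial matrix.

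mRNA was sequenced from 31 libraries of 2 cell lines, which the study used as ovarian cancer lines and grew in the same medium with serum. The study's discussion grants that the origin of C13* makes its use questionable. It also says that A2780 had been reported as an unlikely line of high-grade serous ovarian cancer. C13* is a cisplatin-resistant line, from which 7 libraries with a control shRNA (C13* shCON) and 8 with a lentiviral shRNA against CEBPB, the gene of the transcription factor C/EBPβ (C13* shCEBPB), were labelled. A2780 gave 8 libraries of the untreated parent line and 8 of A2780 OlaR, a strain made resistant by culture in rising doses of the PARP inhibitor olaparib. Which shRNA sequence the shCEBPB libraries carry, and whether A2780 OlaR is 1 clone or a mixture, is not given in the sources used here. The study's methods call the replicates biological without saying how they were grown, so p-values measure the spread between libraries, and whether that is a spread between separate cultures is not given.

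The labels need a caution before any result. Over all 19221 genes, Pearson's r of log2(FPKM + 1) had a median of 0.994 between libraries labelled C13* shCON and libraries labelled A2780 OlaR, which carry the names of different cell lines. Within the groups the medians were 0.996 to 0.998, while libraries with the name of the same line were less alike across conditions, with medians of 0.888 between shCON and shCEBPB and 0.854 between A2780 OlaR and A2780. Over the 37 members alone, the median r was 0.995 between shCON and OlaR, 0.709 between shCON and shCEBPB and 0.543 between OlaR and A2780. These r are a description across genes, which are not independent. In 1 shCON library (replicate 1) the cell line field of the labels reads A2780. Group names below are those of the labels, and no direction below says more than how libraries with one label differed from libraries with another. Because of this, libraries labelled OlaR were also compared with shCON, and A2780 with shCEBPB. In these added comparisons the cell line, the shRNA and the selection cannot be told apart. All 4 comparisons share libraries with others, so their values are set side by side and are not independent of each other.

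CEBPB itself lay at 75.2 to 101 (median 85.4) FPKM in libraries labelled shCON and at 30.2 to 58.7 (median 49.5) in shCEBPB, with no overlap, and its log2 fold change was -0.87 (SE 0.11, limma adjusted p = 1.42e-06). In libraries labelled A2780 and OlaR it lay at 85.6 to 110.97 (median 99.7) and 97.1 to 127 (median 113), and these ranges overlapped. Mean CEBPB was 99.7 FPKM in A2780 and 112 in OlaR, against 85.8 in shCON. Depth, read from the steps of low FPKM, ranged from 0.865 to 1.23 relative to the other libraries. The study states only a lower limit of sequence data per sample. The absolute depth of each library is therefore unknown, and no counting error is given. In the descriptions the libraries of a group are numbered, and numbers 1 to 3 and 4 to 8 deviated apart from each other in shCEBPB and OlaR. The mean r of deviations from the group mean, within and between these ranges, was 0.460 and -0.632 in shCEBPB and 0.398 and -0.594 in OlaR. It was 0.0206 and -0.275 in A2780, and -0.139 and -0.183 in shCON, where the ranges hardly differed. Values within each range are therefore given where they change a call. The 6 markers expected in ovarian carcinoma did not move together. PAX8 was at 6.10 and 6.002 mean FPKM in shCON and OlaR and under 1 in shCEBPB and A2780, whereas FOLR1 was at 1.20 in shCON, 0.910 in OlaR, 887 in shCEBPB and 13.3 in A2780. MSLN was at 30.7, 25.8, 154 and 3.15 mean FPKM in the same order, SOX17 was above 1 in shCEBPB alone (1.83), and WT1 and MUC16 were under 1 in all 4 groups. The list (3 of 6 genes at a mean of at least 1 FPKM in shCON and shCEBPB, 2 of 6 in OlaR and A2780) summed to 35.7 to 41.9 FPKM per library in shCON, 27.1 to 38.6 in OlaR, 998 to 1104 in shCEBPB and 14.9 to 18.5 in A2780. The squamous or basal marker list (6 of 6 genes at a mean of at least 1 FPKM in shCON and OlaR, 1 of 6 in shCEBPB, 0 of 6 in A2780) summed to 2129 to 2433 FPKM per library in shCON, 2175 to 2624 in OlaR, 135 to 353 in shCEBPB and 0.183 to 0.462 in A2780, where KRT5 and KRT6A were listed at 0 in every library. The mesenchymal list (4, 3, 6 and 4 of 6 genes in the same order) summed to 39.6 to 44.4, 31.1 to 34.1, 353 to 381 and 897 to 942 FPKM. VIM made up most of this sum in shCEBPB and A2780, at means of 342 and 809 FPKM, against 9.82 in shCON and 0.160 in OlaR. The list did not move as 1 set, since 3 of its genes were called higher and 3 lower in shCEBPB minus shCON. CDH2, for example, was at 17.3 mean FPKM in shCON and 7.56 in shCEBPB, and FN1 was lowest in A2780 (0.524). The epithelial list (8 of 8 genes in shCON and OlaR, 4 of 8 in shCEBPB and A2780) summed to 2464 to 2722, 2683 to 3213, 1785 to 2162 and 86.5 to 95.2 FPKM in shCON, OlaR, shCEBPB and A2780. In shCEBPB minus shCON, 3 of its genes were called higher and 5 lower. KRT7, for example, was at 8.02 mean FPKM in shCON and 583 in shCEBPB, whereas EPCAM, CDH1, KRT19 and ESRP1 were under 1 in shCEBPB. The sums of these marker lists differed between the labels, but not all in the same order. The integrin and laminin genes below also differed between the labels, and the part of the marker lists in those differences was not tested.

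Of the 26 integrin genes, 7 reached a mean of 10 FPKM in at least 1 group, 9 reached 1 to under 10 FPKM, and 10 stayed under 1 FPKM in all 4 groups. Of the 11 laminin genes, 8 reached a mean of 10 FPKM and 3 stayed under 1 FPKM. Genes that reached 1 FPKM in 7 libraries, or in 8 where both groups had 8, were tested with limma on log2(FPKM + 1) and called at an adjusted p under 0.05 (Benjamini-Hochberg, over all genes tested), and values after SE are standard errors. Fold changes on this scale understate the change of low genes. Between shCEBPB and shCON, 84.7% of the 12006 genes tested were called (38.9% higher and 45.7% lower) and 29.5% were also at least 2-fold apart (12.7% higher and 16.7% lower). The median absolute log2 fold change was 0.57 over all genes tested. Of 13 integrins tested, 12 were called (4 higher and 8 lower in shCEBPB), 6 of them at 2-fold, and their median absolute log2 fold change was 0.90. All 8 laminins tested were called (4 higher, 4 lower), 6 at 2-fold, with a median absolute value of 2.60. Between OlaR and A2780, 89.8% of 12458 genes were called (40.1% higher and 49.7% lower) and 35.7% at 2-fold (15.5% higher and 20.1% lower), with a median absolute value of 0.70. There, all 14 integrins tested were called (7 higher and 7 lower in OlaR), 11 at 2-fold, with a median absolute value of 2.57, and all 7 laminins tested were called (3 higher, 4 lower), 6 at 2-fold, with a median of 2.21. With so many genes called, the share of members called says little, and the sizes below carry the description. A member had to pass the filter on low values in at least 1 group, which these counts do not correct for. In bulk RNA, fewer cells of a type and less RNA per cell cannot be told apart.

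**Figure D1:**
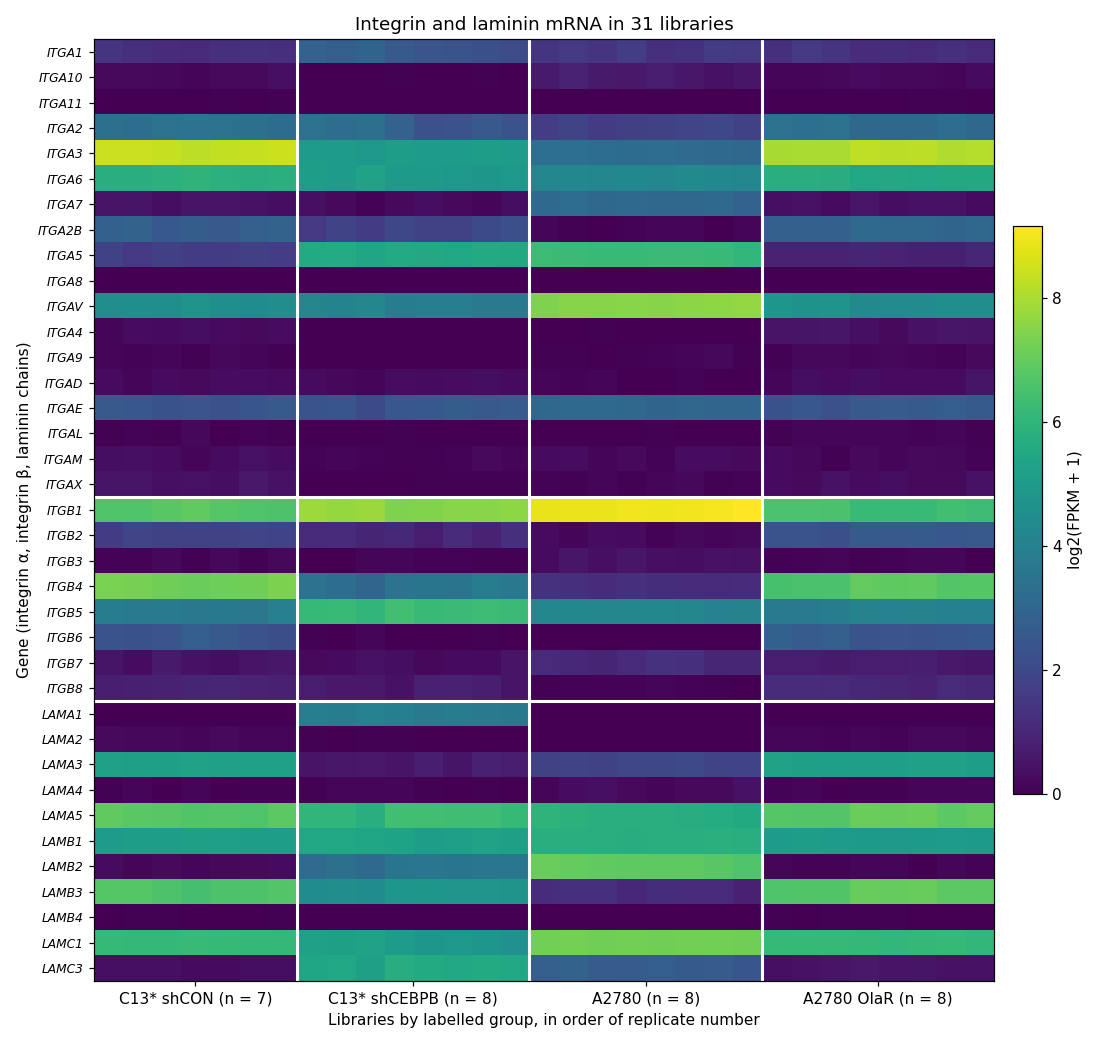
Colour shows log2(FPKM + 1) of the 37 integrin and laminin genes (rows) in the 31 libraries (columns, by labelled group, white lines between groups and between α chains, β chains and laminins). The columns of C13* shCON and A2780 OlaR look alike, with ITGA3, ITGB4, LAMA3 and LAMB3 bright, whereas ITGAV, ITGB1, LAMB2 and LAMC1 are brightest in A2780 and LAMA1, LAMC3 and ITGB5 in C13* shCEBPB.

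LAMA3 (α3) and LAMB3 (β3), chains of the epithelial laminin of hemidesmosomes, had their highest levels in libraries labelled shCON and OlaR. For LAMA3 and LAMB3 the windows before their RefSeq start sites (GRCh38.p14) are shown, since these genes were among the most different members and their windows were the only ones of the members with an AP-1 motif, TGANTCA, the site of a family of basic leucine zipper factors. Capitals mark matches on either strand of TGANTCA and of the relaxed C/EBP motif TTNNGNAA. LAMA3 (chr18:23872770-23873019, plus strand) is shown before an inner start site, and this stretch lies inside the gene and in no exon of it. LAMB3 is shown before its outermost start (chr1:209652426-209652675, minus strand) and before an inner one (chr1:209651395-209651624, minus strand, inside the gene, with the last bases before the start left out where they lie in an exon or follow one). LAMB2, which had its lowest levels in shCON and OlaR, is shown before the first base of its gene (chr3:49133119-49133300, minus strand).
LAMA3: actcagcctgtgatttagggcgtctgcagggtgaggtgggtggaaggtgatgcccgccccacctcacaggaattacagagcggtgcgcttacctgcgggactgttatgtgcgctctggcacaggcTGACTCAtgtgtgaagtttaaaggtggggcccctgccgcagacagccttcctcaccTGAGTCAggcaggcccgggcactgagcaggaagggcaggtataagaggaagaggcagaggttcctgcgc
LAMB3, outermost start: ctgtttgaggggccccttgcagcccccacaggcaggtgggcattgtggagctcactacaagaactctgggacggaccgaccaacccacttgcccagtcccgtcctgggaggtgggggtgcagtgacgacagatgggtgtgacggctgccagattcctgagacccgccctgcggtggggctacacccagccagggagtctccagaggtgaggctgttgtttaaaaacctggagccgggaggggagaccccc
LAMB3, inner start: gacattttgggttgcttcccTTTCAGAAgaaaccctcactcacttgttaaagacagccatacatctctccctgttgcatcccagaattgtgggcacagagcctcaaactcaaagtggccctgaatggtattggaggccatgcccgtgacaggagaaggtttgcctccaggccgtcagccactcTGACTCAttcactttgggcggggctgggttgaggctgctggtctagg
LAMB2: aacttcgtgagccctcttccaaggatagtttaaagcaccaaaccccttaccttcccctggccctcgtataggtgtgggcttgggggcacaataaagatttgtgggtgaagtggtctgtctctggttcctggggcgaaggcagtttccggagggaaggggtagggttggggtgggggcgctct
In LAMA3 the matches to TGANTCA began 125 and 69 bases before the start, and in LAMB3 the match began 67 bases before the inner start, with a match to TTNNGNAA 230 bases before it. The windows shown of LAMB2 and of the outermost LAMB3 start held none. RefSeq windows of 250 bases before the start were found by symbol for 26 of the 37 members, 33 windows in all. TGANTCA was in 6.57% of all 35116 windows and in 2 of the 33 (6.06%), and TTNNGNAA was in 33.2% of all and in 4 of the 33 (12.1%), those of ITGA2, ITGA5, ITGB5 and LAMB3. The C/EBP palindrome TTGCGCAA, a special case of TTNNGNAA, was in 0.131% of all windows and in 0 of the 33. A match is a description of letters and not a bound site.

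LAMA3 fell from 36.8 ± 0.694 (SD, n = 7) FPKM in shCON, where libraries lay at 35.7 to 37.7 (median 37.2), to 0.382 to 0.781 (median 0.514) in shCEBPB. The shCON mean was 66.8 times the shCEBPB mean, and the log2 fold change was -4.61 (SE 0.06, limma adjusted p = 1.84e-21). LAMB3 fell less, from 87.6 to 107 (median 97.3) FPKM to 20.7 to 27.5 (median 26.2), with a log2 fold change of -1.97 (SE 0.07, limma adjusted p = 9.89e-15). The groups did not overlap for either chain. In shCEBPB libraries LAMB3 thus kept a mean of 24.6 FPKM while the mean of its partner LAMA3 was 0.551 FPKM. Lack of overlap was common in this comparison, at 66.0% of genes tested. For every member without overlap between shCEBPB and shCON other than ITGAV, the exact permutation test (two-sided) gave p = 0.0001554, the smallest these libraries allow.

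In A2780 and OlaR the same chains were high in OlaR, but LAMB3 was the more apart. LAMB3 lay at 99.5 to 129.9 (median 115) FPKM in OlaR and at 0.796 to 1.38 (median 1.25) in A2780, and its log2 fold change was 5.72 (SE 0.07, limma adjusted p = 2.38e-23). LAMA3 lay at 34.3 to 38.1 (median 35.8) in OlaR against 2.50 to 3.10 (median 2.69) in A2780, with a log2 fold change of 3.31 (SE 0.04, limma adjusted p = 2.79e-23). Libraries labelled A2780 therefore held more LAMA3 than LAMB3, at means of 2.74 and 1.19 FPKM, whereas libraries labelled shCEBPB held LAMB3 with little LAMA3. In A2780 minus shCEBPB the log2 fold change was 1.28 (SE 0.06, limma adjusted p = 7.67e-14) for LAMA3 and -3.54 (SE 0.07, limma adjusted p = 2.44e-19) for LAMB3. Neither gene overlapped between the groups, as for 72.3% of genes tested.

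**Figure D2:**
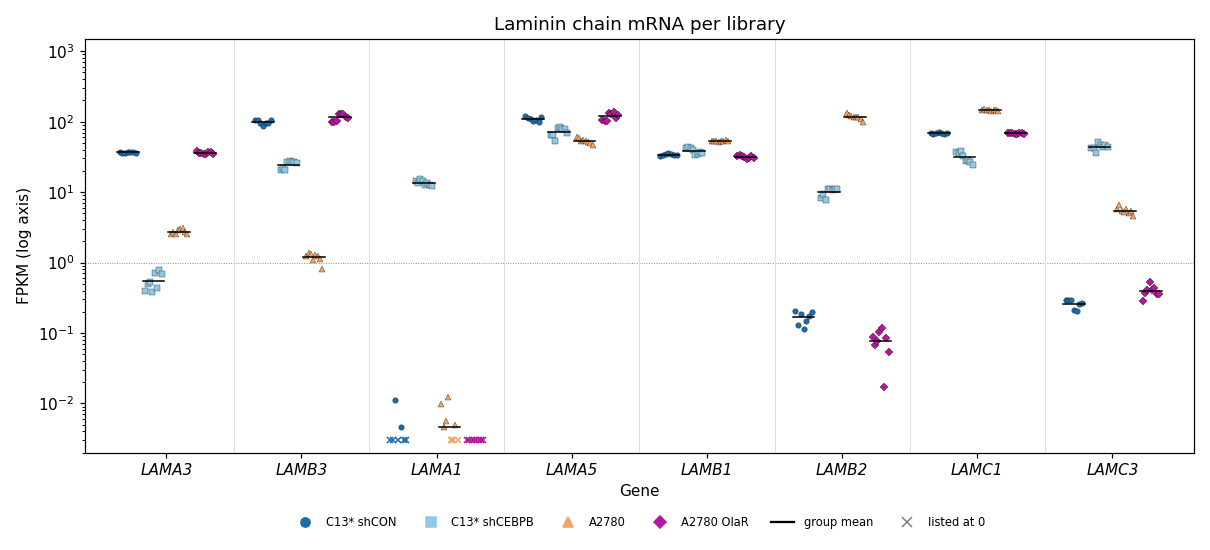
Each point is 1 library, in FPKM on a log axis, for 8 laminin chains with a mean of at least 10 FPKM in a group; black lines are group means, and crosses at the bottom are libraries listed at 0. LAMA3 and LAMB3 are high in C13* shCON and A2780 OlaR, LAMA1 is above 1 FPKM in C13* shCEBPB alone, and LAMB2 spans from at most 0.208 FPKM in shCON and 0.118 in OlaR to at least 98.0 in A2780.

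Of the other laminin chains, LAMB2, LAMC1 and LAMC3 lay apart in shCEBPB, in A2780 and in the pair shCON and OlaR, which were alike. LAMB1 overlapped between shCON and shCEBPB, LAMA5 overlapped between shCEBPB and A2780, and LAMA1 set shCEBPB alone apart. LAMA1 (α1, a chain of early embryonic basement membranes) lay at 12.2 to 15.6 (median 13.5) FPKM in shCEBPB. In shCON it was listed at 0 in 5 of 7 libraries and reached 0.0110 FPKM at most, in A2780 it reached 0.0123, and in OlaR it was listed at 0 in 8 of 8 libraries. On the log2(FPKM + 1) scale the difference between shCEBPB and shCON was 3.86 (SE 0.05, limma adjusted p = 1.82e-21), a size that depends on the pseudocount. LAMC3 (γ3) was also highest in shCEBPB, at 35.6 to 51.1 (median 43.6) FPKM, against 0.202 to 0.297 (median 0.263) in shCON. Its log2 fold change between them was 5.16 (SE 0.06, limma adjusted p = 9.28e-22). In A2780 it lay at 4.53 to 6.50 (median 5.36) and in OlaR at 0.283 to 0.536 (median 0.382), a log2 fold change of -2.21 (SE 0.05, limma adjusted p = 1.31e-18) in OlaR minus A2780. LAMA1 was near 0 in both A2780 groups and was not tested there. Part of the exons of LAMA1 (1754 bases) lies opposite genes on the other strand, and whether counting used the strand is not stated.

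LAMB2 (β2, a chain of mature basement membranes such as those of the kidney glomerulus and the synapse) had the largest fall of all members in OlaR. It lay at 98.0 to 133 (median 117) FPKM in A2780 and at 0.0170 to 0.118 (median 0.0810) in OlaR, and its log2 fold change was -6.77 (SE 0.05, limma adjusted p = 1.17e-26). Between shCEBPB (7.66 to 11.2 (median 10.8) FPKM) and shCON (0.112 to 0.208 (median 0.173) FPKM) it rose by 3.23 (SE 0.07, limma adjusted p = 1.43e-17) on the log2 scale. The more widely expressed partner chain LAMB1 (β1) moved far less. LAMB1 lay at 32.7 to 35.9 (median 33.8) FPKM in shCON and 34.0 to 43.3 (median 38.2) in shCEBPB, and these ranges overlapped. The log2 fold change of LAMB1 was 0.17 (SE 0.05, limma adjusted p = 0.00706), with 0.34 within libraries 1 to 3 and 0.07 (adjusted p = 0.201, limma) within libraries 4 to 8, so this call rests on libraries 1 to 3. In A2780 LAMB1 was at 51.2 to 55.4 (median 53.2) FPKM and in OlaR at 29.7 to 33.9 (median 31.8), without overlap, with a log2 fold change of -0.73 (SE 0.03, limma adjusted p = 1.24e-14).

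LAMC1 (γ1, the γ chain of most laminins) was highest in A2780, at 142 to 149 (median 147) FPKM, and was 2.14 times the OlaR mean there. OlaR libraries lay at 66.4 to 69.3 (median 68.3) and shCON libraries at 66.8 to 71.4 (median 68.4), a narrow band in both. In shCEBPB LAMC1 lay at 23.9 to 38.0 (median 30.6) FPKM. Its log2 fold change was -1.13 (SE 0.08, limma adjusted p = 5.87e-10) in shCEBPB minus shCON and -1.09 (SE 0.02, limma adjusted p = 3.03e-19) in OlaR minus A2780. LAMA5 (α5, the α chain of most adult epithelial basement membranes) was the main laminin α mRNA under every label. It lay at 99.3 to 121 (median 109) FPKM in shCON, 52.6 to 83.7 (median 74.7) in shCEBPB, 46.5 to 61.0 (median 53.2) in A2780 and 103 to 138 (median 119) in OlaR. The log2 fold changes of LAMA5 were -0.60 (SE 0.09, limma adjusted p = 4.89e-06) in shCEBPB minus shCON and 1.13 (SE 0.07, limma adjusted p = 5.06e-12) in OlaR minus A2780. The 3 chains under 1 FPKM, LAMA2, LAMA4 and LAMB4, reached 0.366 FPKM at most in any library.

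In shares, LAMA5 made up 74.6% of the summed laminin α FPKM in shCON, 76.5% in OlaR, 83.2% in shCEBPB and 94.7% in A2780, and LAMA3 or LAMA1 nearly all the rest. The leading β chain was LAMB3 in shCON (74.2%) and OlaR (78.1%), LAMB1 in shCEBPB (52.8%) and LAMB2 in A2780 (68.2%). FPKM is scaled by gene length, so these levels can be set side by side within a library, but they are shares of mRNA and not of assembled trimers.

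**Figure D3:**
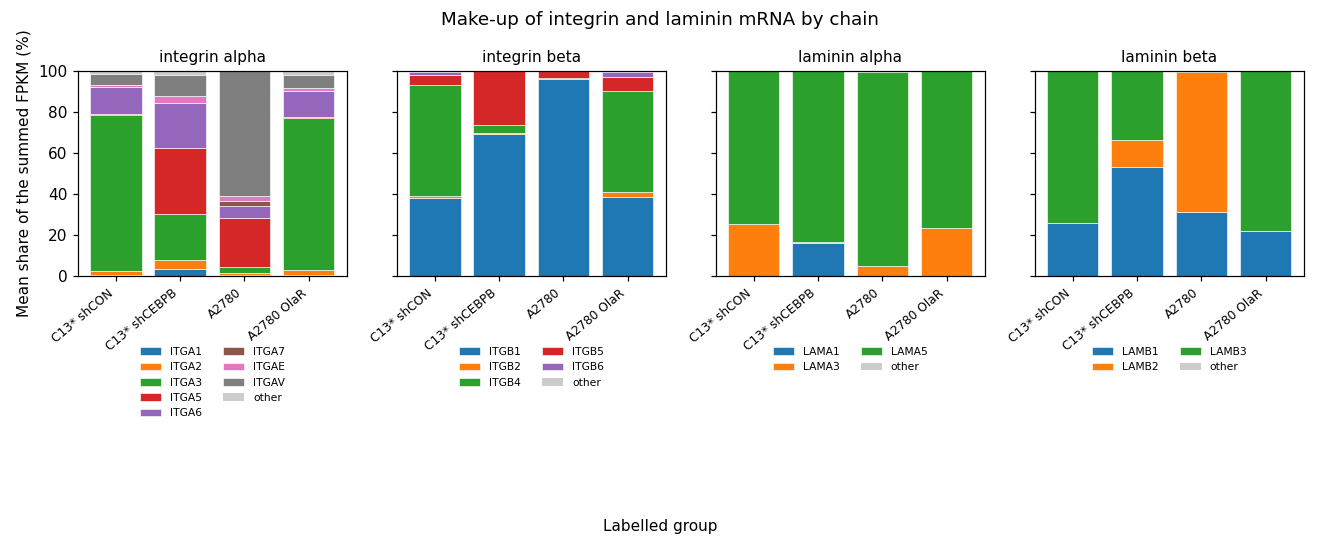
Stacked bars show the mean share (%) of each chain in the summed FPKM of integrin α, integrin β, laminin α and laminin β genes under each label; chains that stay below 2% under every label are grouped as other. ITGA3 fills most of the α bar in C13* shCON and A2780 OlaR, ITGAV in A2780, and ITGB1 fills 96.0% of the β bar in A2780.

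ITGA3 encodes α3, which pairs with β1 and binds the epithelial laminins, and it was the most abundant integrin α mRNA in shCON and OlaR. It lay at 300.0 to 348 (median 325) FPKM in shCON and at 28.2 to 34.0 (median 32.2) in shCEBPB. The log2 fold change was -3.32 (SE 0.04, limma adjusted p = 5.84e-21), and the shCON mean was 10.3 times the shCEBPB mean. In A2780 it lay at 7.27 to 9.25 (median 8.56) FPKM and in OlaR at 248 to 308 (median 275), a log2 fold change of 4.87 (SE 0.05, limma adjusted p = 6.73e-24). ITGA6 encodes α6, the partner of β4 in hemidesmosomes and of β1 elsewhere. It followed the same order over a smaller range, at 53.6 to 61.3 (median 55.1) FPKM in shCON and 27.9 to 38.0 (median 30.2) in shCEBPB, 17.2 to 19.5 (median 17.8) in A2780 and 43.0 to 53.4 (median 46.7) in OlaR. Its log2 fold changes were -0.83 (SE 0.06, limma adjusted p = 3.45e-10) in shCEBPB minus shCON and 1.37 (SE 0.05, limma adjusted p = 4.03e-16) in OlaR minus A2780. ITGA7 (α7, the main laminin receptor of skeletal muscle) went the other way, with a mean of 7.66 FPKM in A2780 and 0.311 in OlaR (-2.72 on the log2 scale, adjusted p = 3.83e-20, limma). In both C13* groups it stayed at or under 0.434 FPKM and was not tested.

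ITGB4 encodes β4, which pairs only with α6, and had the largest log2 fold change of FPKM + 1 among the β chains in both comparisons of the study. That order depends on the pseudocount, since ITGB6, a β chain of lower level, had means of 4.38 FPKM in shCON and 0.0301 in shCEBPB and was listed at 0 in A2780. ITGB4 lay at 133 to 162 (median 144) FPKM in shCON and at 6.91 to 13.6 (median 10.4) in shCEBPB, and its log2 fold change was -3.72 (SE 0.10, limma adjusted p = 7.63e-17). In A2780 it lay at 1.20 to 1.45 (median 1.27) FPKM and in OlaR at 90.0 to 123 (median 105), a log2 fold change of 5.52 (SE 0.07, limma adjusted p = 2.01e-23). No library of either label overlapped with the label it was compared with, as for 74.1% of genes tested in OlaR minus A2780. ITGB1 (β1, the common partner of most matrix-binding α chains) went the opposite way in both comparisons of the study. It lay at 95.9 to 119.6 (median 99.6) FPKM in shCON and 166 to 226 (median 189) in shCEBPB, with a log2 fold change of 0.89 (SE 0.07, limma adjusted p = 9.07e-10). In A2780 ITGB1 lay at 457 to 571 (median 488) FPKM and in OlaR at 72.4 to 94.8 (median 79.8), with a log2 fold change of -2.58 (SE 0.07, limma adjusted p = 3.02e-18). In the libraries labelled shCON and OlaR, ITGB4 made up 54.2% and 49.2% of the summed β FPKM and ITGB1 38.1% and 38.7%. The ITGB1 share was 69.2% in shCEBPB, where ITGB5 made up most of the rest, and 96.0% in A2780. The summed β FPKM were 272 ± 5.80 (SD, n = 7) in libraries labelled shCON and 279.6 ± 17.2 (SD, n = 8) in shCEBPB, while the summed α FPKM were 434 ± 15.1 and 143 ± 7.17 in the same groups.

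**Figure D4:**
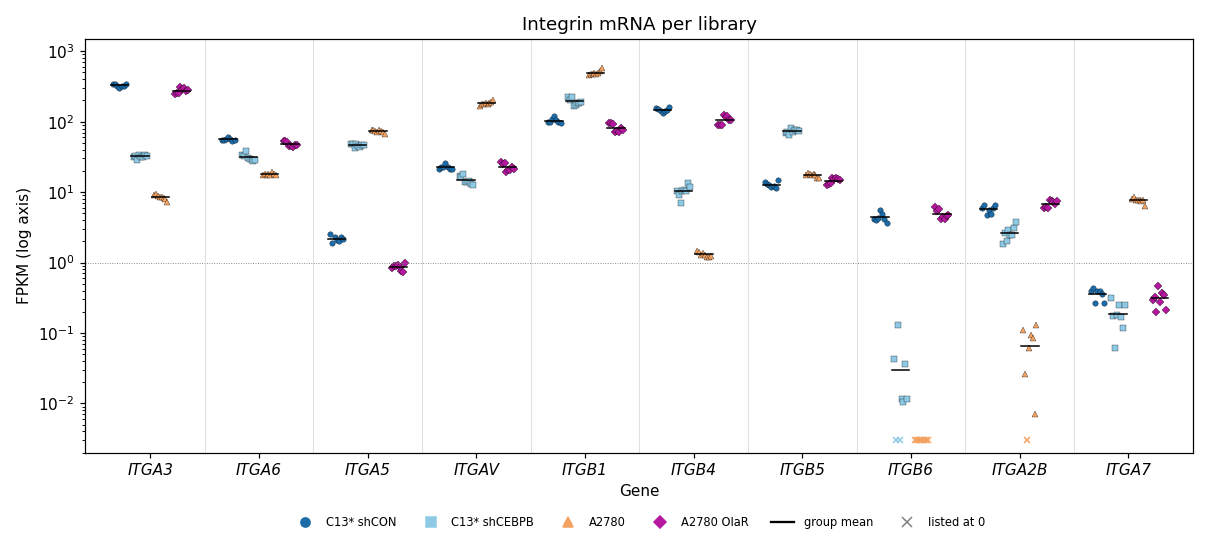
Each point is 1 library, in FPKM on a log axis, for 7 integrins with a mean of at least 10 FPKM in a group and for ITGB6, ITGA2B and ITGA7; black lines are group means and crosses at the bottom are libraries listed at 0. ITGA3 and ITGB4 are highest in C13* shCON and A2780 OlaR, ITGA5 is highest in A2780 and C13* shCEBPB, and ITGB6 is listed at 0 in all 8 A2780 libraries.

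Some α chains bind fibronectin and other proteins through the short RGD peptide. Of these, ITGA5 (α5, of the main fibronectin receptor) had the largest log2 fold changes of FPKM + 1 in both comparisons of the study. In OlaR minus A2780 that order may depend on the pseudocount, since ITGA2B, a chain of lower level, had means of 6.86 and 0.0644 FPKM. ITGA5 lay at 1.87 to 2.51 (median 2.13) FPKM in shCON and at 42.0 to 48.2 (median 46.9) in shCEBPB, with a log2 fold change of 3.89 (SE 0.05, limma adjusted p = 1.84e-21). In A2780 it lay at 66.7 to 77.0 (median 73.9) FPKM and in OlaR at 0.742 to 0.976 (median 0.882), where the A2780 mean was 84.6 times the OlaR mean and the log2 fold change was -5.31 (SE 0.04, limma adjusted p = 9.15e-27). ITGAV (αv, which pairs with β1, β3, β5, β6 and β8) did not follow ITGA5 in C13*. It lay at 21.2 to 25.9 (median 22.4) FPKM in shCON and 12.5 to 18.0 (median 14.1) in shCEBPB, a log2 fold change of -0.57 (SE 0.07, limma adjusted p = 1.08e-06), and the exact permutation test (two-sided) gave p = 0.000311. In A2780 ITGAV lay at 168 to 201 (median 183) FPKM and made up 60.6% of the summed α FPKM. In OlaR it lay at 19.3 to 26.8 (median 21.9), a log2 fold change of -2.97 (SE 0.06, limma adjusted p = 1.33e-19).

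The β partners of αv differed from one another. ITGB5 (β5, in the vitronectin receptor) lay at 11.2 to 15.0 (median 12.5) FPKM in shCON and 64.8 to 81.8 (median 73.1) in shCEBPB, with a log2 fold change of 2.43 (SE 0.06, limma adjusted p = 4.2e-17). In A2780 it lay at 15.7 to 18.5 (median 17.5) FPKM and in OlaR at 12.7 to 16.0 (median 14.9); the ranges overlapped and the log2 fold change was -0.24 (SE 0.05, limma adjusted p = 0.00031). ITGB6 (β6, an epithelial chain whose αvβ6 integrin activates latent TGF-β) had a mean of 4.38 ± 0.674 (SD, n = 7) FPKM in shCON. Its mean in OlaR was 4.92 ± 0.772 (SD, n = 8). In shCEBPB it was at 0.128 FPKM at most, and in A2780 it was listed at 0 in 8 of 8 libraries. Its log2 fold changes were -2.38 (SE 0.06, limma adjusted p = 1.36e-16) in shCEBPB minus shCON and 2.55 (SE 0.06, limma adjusted p = 1.74e-18) in OlaR minus A2780, sizes that depend on the pseudocount. Part of the exons of ITGB6 (966 bases) is shared with a gene on the same strand. ITGB8 (β8, another activator of latent TGF-β) stayed near 1 FPKM or lower, with means of 0.824 in shCON, 0.597 in shCEBPB, 0.0540 in A2780 and 1.09 in OlaR, and was not tested. ITGB3 (β3) was under 1 FPKM in every library.

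ITGA2B encodes αIIb, which with β3 forms the fibrinogen receptor of platelets. Its mean was 5.75 FPKM in shCON, 2.66 in shCEBPB, 6.86 in OlaR and 0.0644 in A2780. The log2 fold change was -0.90 (SE 0.10, limma adjusted p = 1.24e-07) in shCEBPB minus shCON and 2.88 (SE 0.05, limma adjusted p = 2.91e-20) in OlaR minus A2780. Its only known partner ITGB3 was at 0.0857, 0.0556, 0.0686 and 0.337 mean FPKM in the same order. Of the 4 platelet or megakaryocyte markers, GP9, PF4 and PPBP were listed at 0 in every library of shCON, shCEBPB and OlaR, and the list summed to 0.946 to 1.36 FPKM in shCON and 0.390 to 1.07 in OlaR, 0.802 to 1.33 in shCEBPB and 1.02 to 2.02 in A2780.

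The collagen receptors ITGA1 (α1) and ITGA2 (α2), both partners of β1, are neighbours on chromosome 5 of hg38 (ITGA1 from 52787916 to 52959209, ITGA2 from 52989340 to 53094779, both on the plus strand). They moved in opposite directions in C13*. ITGA1 had a mean of 1.37 FPKM in shCON and 4.94 in shCEBPB, a log2 fold change of 1.30 (SE 0.11, limma adjusted p = 3.89e-09). ITGA2 had a mean of 9.44 FPKM in shCON and 6.36 in shCEBPB, and the log2 fold change was -0.58 (SE 0.17, limma adjusted p = 0.00416). This call for ITGA2 rests on part of the libraries. In shCEBPB ITGA2 lay at 8.64 to 9.57 FPKM in libraries 1 to 3 and at 3.81 to 6.41 in libraries 4 to 8. Within libraries 1 to 3 its log2 fold change was -0.04 (adjusted p = 0.642, limma), and within libraries 4 to 8 it was -0.90 (adjusted p = 3e-06, limma). ITGA1 also differed between these ranges of shCEBPB, at 5.91 to 6.80 and 3.41 to 4.92 FPKM, but was higher than shCON in both. ITGA1 shares 1070 exonic bases with genes on its own strand, PELO among them, so part of its FPKM may belong to them. In OlaR minus A2780, ITGA2 rose from a mean of 2.51 to 8.37 FPKM (1.42 on the log2 scale, adjusted p = 2.02e-13, limma). ITGA1 differed little, at 1.77 and 1.37 mean FPKM (-0.22, adjusted p = 0.00303, limma), and within libraries 1 to 3 its log2 fold change was -0.06 (adjusted p = 0.468, limma). Apart from ITGA2, LAMB1 and ITGA1 as given here, each member called between shCEBPB and shCON or between OlaR and A2780 kept its direction and its call within both ranges. ITGA10 and ITGA11, the other collagen-binding α chains, were under 1 FPKM in every library.

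Integrins of leukocytes were low. ITGB2 (β2, the common β chain of leukocyte integrins) had means of 2.51 FPKM in shCON and 1.05 in shCEBPB, a log2 fold change of -0.79 (SE 0.07, limma adjusted p = 7.27e-09). In OlaR its mean was 4.58 FPKM and in A2780 0.152, a log2 fold change of 2.27 (SE 0.05, limma adjusted p = 1.05e-18). Its α partners ITGAL, ITGAM, ITGAX and ITGAD were all under 1 FPKM in every library, with 0.535 FPKM of ITGAX in a shCON library the highest. The leukocyte marker list (0 of 6 genes at a mean of at least 1 FPKM in shCON, shCEBPB and OlaR, 2 of 6 in A2780) summed to 0.221 to 0.626 FPKM in shCON, 0.239 to 0.560 in OlaR, 0.543 to 1.37 in shCEBPB and 77.5 to 104 in A2780, where PTPRC alone had a mean of 85.9 and CD3E was listed at 0. ITGB2 was thus lowest where this sum was highest. ITGAE (αE, which binds E-cadherin) had means of 4.43, 4.63, 7.24 and 4.79 FPKM in shCON, shCEBPB, A2780 and OlaR. It was not called between shCEBPB and shCON (log2 0.04, SE 0.08, limma adjusted p = 0.612) and was lower in OlaR than in A2780 (log2 -0.52, SE 0.06, limma adjusted p = 9.56e-08). Its partner ITGB7 (β7) had means of 0.395, 0.237, 1.15 and 0.602 FPKM in the same order and was not tested, and 1881 of its exonic bases lie opposite the gene ZNF740. ITGA4, ITGA8 and ITGA9, the remaining α chains, were under 1 FPKM in every library.

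**Figure D5:**
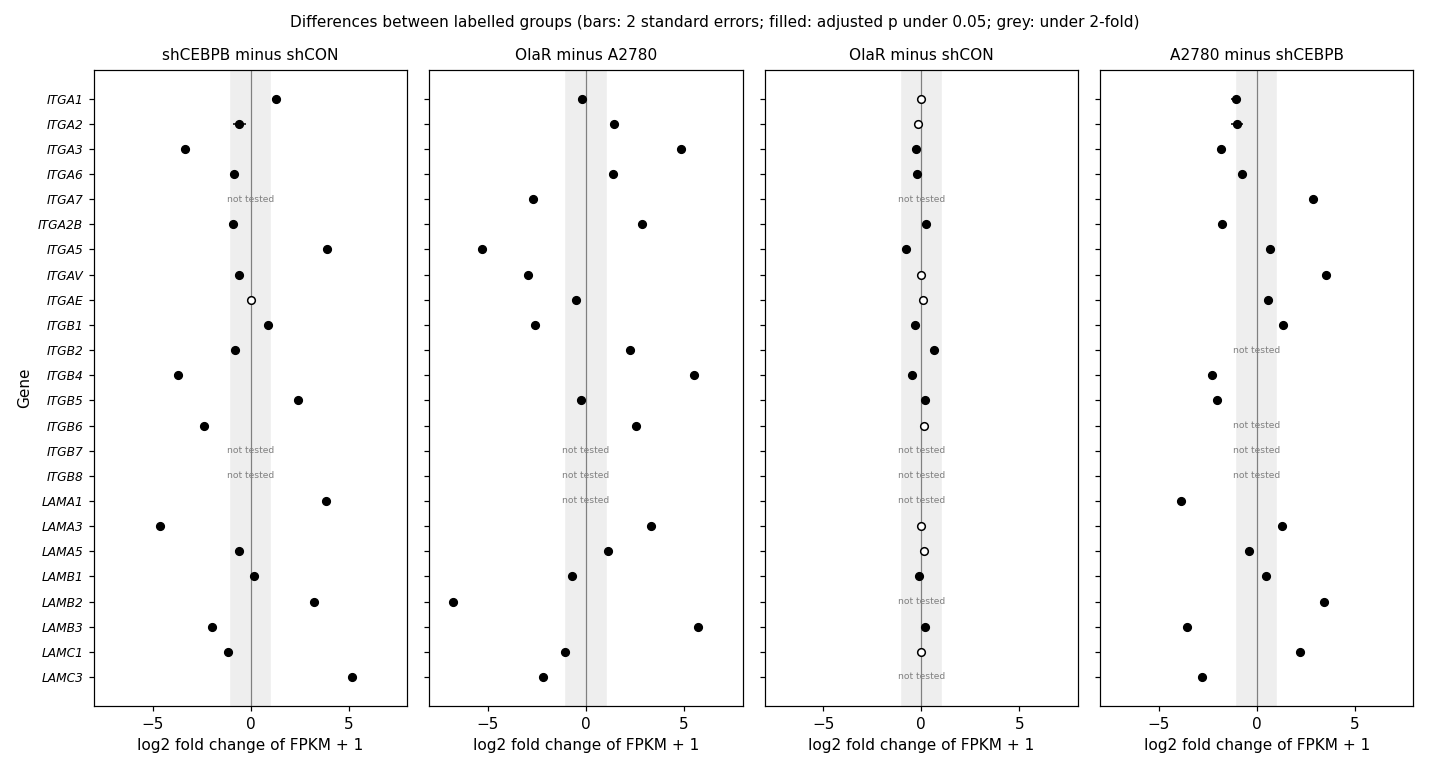
Points are log2 fold changes of FPKM + 1 (limma) of members with a mean of at least 1 FPKM in a group (24 rows), in 4 comparisons in which 21, 21, 18 and 20 of them were tested, the others being marked as not tested; bars are 2 standard errors, mostly hidden by the points, filled points are called at an adjusted p under 0.05, and the grey band is under 2-fold. In OlaR minus shCON no point lies outside the band, while in the other comparisons the points spread from -6.77 (LAMB2 in OlaR minus A2780) to 5.72 (LAMB3 in OlaR minus A2780).

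Between libraries labelled OlaR and shCON, 42.2% of 11547 genes tested were called (19.3% higher and 22.9% lower) and 0.589% at 2-fold. Of the members, 8 of 13 integrins tested (3 higher and 5 lower in OlaR) and 2 of 5 laminins (LAMB3 higher, LAMB1 lower) were called, and none reached 2-fold on the log2(FPKM + 1) scale. The largest difference was in ITGA5, at a mean of 2.18 FPKM in shCON and 0.863 in OlaR, a ratio of 2.53 that passed 2-fold with smaller pseudocounts (log2 -0.77, SE 0.05, limma adjusted p = 1.19e-09). ITGB2 was higher in OlaR (log2 0.67, SE 0.06, limma adjusted p = 1.9e-07). ITGB4 was lower in OlaR (log2 -0.49, SE 0.07, limma adjusted p = 4.02e-05). For these 3 genes no OlaR library overlapped with shCON, as for 16.6% of all genes tested. LAMA3 and LAMC1, at 36.8 and 68.8 mean FPKM in shCON and 36.0 and 68.1 in OlaR, did not pass the test, with log2 fold changes of -0.03 (SE 0.03, limma adjusted p = 0.449) and -0.02 (SE 0.03, limma adjusted p = 0.665). ITGAV (22.5 and 22.7 FPKM) and ITGB6 (4.38 and 4.92 FPKM) did not pass it either. Many of the smaller calls in OlaR minus shCON changed within the ranges of library numbers. These ranges hold fewer libraries and hardly set shCON libraries apart. ITGB5 and LAMB3, called higher over all libraries (0.17 and 0.20), had log2 fold changes of -0.02 and -0.03 within libraries 1 to 3 (adjusted p = 0.754 and 0.626, limma). ITGA2B (0.22 over all libraries), ITGA6 (-0.22), ITGB1 (-0.34) and LAMB1 (-0.10) were at 0.06, -0.07, -0.11 and -0.03 there (adjusted p = 0.597, 0.180, 0.0629 and 0.641, limma). ITGAV and ITGB6 were called higher within libraries 1 to 3 (0.22 and 0.40, adjusted p = 0.00322 and 0.00109, limma) and not over all, and ITGA2 (-0.27) and ITGAE (0.19) were called within libraries 4 to 8 alone (adjusted p = 0.00372 and 0.0253, limma). LAMA5 was called lower in OlaR within libraries 1 to 3 (-0.13, adjusted p = 0.0336, limma) and higher within libraries 4 to 8 (0.28, adjusted p = 0.00165, limma).

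Leaving out single libraries in OlaR minus shCON ended the calls of 3 members. ITGB5 was no longer called without any 1 of 10 libraries, OlaR replicates 4 to 8 and shCON replicates 2 to 6 (limma adjusted p = 0.0511 to 0.0963). ITGA2B was not called without shCON replicate 3 or shCON replicate 5 (limma adjusted p = 0.0531 and 0.0521), so that 1 integrin was then called higher in place of 3. LAMB1, at 34.1 mean FPKM in shCON and 31.7 in OlaR (log2 -0.10, SE 0.03, limma adjusted p = 0.0248), overlapped between the groups, and its adjusted p by limma was 0.0519 without OlaR replicate 5, 0.0566 without shCON replicate 4 and 0.0513 without shCON replicate 5. ITGA2 (log2 -0.16, SE 0.07, limma adjusted p = 0.0593) became called without OlaR replicate 1, 2 or 3 or shCON replicate 7 (limma adjusted p = 0.0206 to 0.0452). With a block on the replicate number neither laminin was called (adjusted p = 0.141 for LAMB1 and 0.0963 for LAMB3, limma), nor were ITGA2B and ITGB5 (adjusted p = 0.0834 and 0.145, limma).

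Libraries labelled A2780 and shCEBPB both had less ITGB4, LAMA3 and ITGA3 than shCON and OlaR. They also differed from each other, in these genes and in other members. Of 12234 genes tested between them, 88.9% were called (51.5% higher and 37.4% lower) and 38.5% at 2-fold. All 12 integrins tested were called (5 higher and 7 lower in A2780) and all 8 laminins (4 higher, 4 lower). Higher in A2780 were ITGAV (log2 3.55, SE 0.07, limma adjusted p = 5.96e-20) and ITGB1 (log2 1.36, SE 0.06, limma adjusted p = 1.25e-13) among integrins, and LAMB2 (log2 3.43, SE 0.08, limma adjusted p = 1.39e-18) and LAMC1 (log2 2.20, SE 0.08, limma adjusted p = 1.57e-15) among laminins. Higher in shCEBPB were ITGB5, with a log2 fold change of -2.02 (SE 0.05, limma adjusted p = 1.98e-18) in A2780 minus shCEBPB, ITGB4 (log2 -2.29, SE 0.09, limma adjusted p = 4.82e-15), ITGA3 (log2 -1.81, SE 0.05, limma adjusted p = 2.24e-17) and LAMC3 (log2 -2.81, SE 0.07, limma adjusted p = 3.24e-18). LAMA5 was called lower in A2780 (log2 -0.41, SE 0.09, limma adjusted p = 0.000182), but within libraries 1 to 3 its log2 fold change was -0.07 (adjusted p = 0.461, limma). The fibroblast marker list (5 of 6 genes at a mean of at least 1 FPKM in A2780, 2 of 6 in shCEBPB, 1 of 6 in the others) summed to 355 to 411.1 FPKM in A2780, mostly COL3A1, 15.5 to 23.2 in shCEBPB, 3.34 to 4.10 in shCON and 3.71 to 5.16 in OlaR. The endothelial list summed to at most 2.98 FPKM in any library.

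Genes that work with integrins and laminins were taken from 5 lists. Their median absolute log2 fold changes were 0.59, 0.76, 2.17, 0.47 and 1.65 in shCEBPB minus shCON (0.57 over all genes tested) and 1.75, 1.29, 0.85, 1.24 and 2.96 in OlaR minus A2780 (0.70 over all), for hemidesmosome and tetraspanin partners, adaptors, basement membrane partners, other laminin receptors and other ligands in turn. Over all genes tested, 84.7% were called and 29.5% at 2-fold in shCEBPB minus shCON, and 89.8% and 35.7% in OlaR minus A2780. The counts of every list are to be read beside these shares. Among hemidesmosome and tetraspanin partners, 2 higher and 6 lower of 8 tested were called in shCEBPB minus shCON, 0 and 1 of them at 2-fold. In OlaR minus A2780 the counts were 5 higher and 2 lower of 8 tested, 4 and 1 at 2-fold. COL17A1, the transmembrane collagen of the hemidesmosome, was at 135 ± 3.91 FPKM in shCON and 0.434 ± 0.139 in shCEBPB, and at 72.6 ± 4.21 in OlaR and 1.17 ± 0.180 in A2780. Its log2 fold changes were -6.57 and 5.09. CD9, a tetraspanin found with laminin-binding integrins, rose in OlaR minus A2780 (2.65 on the log2 scale) and the tetraspanin CD63 fell (-1.30). All fold changes named for these lists were called by limma.

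Of the integrin adaptors and focal adhesion genes, 16 higher and 12 lower of 30 tested were called in shCEBPB minus shCON (7 and 3 at 2-fold) and 16 higher and 14 lower of 30 tested in OlaR minus A2780 (10 and 7 at 2-fold). LIMS2 and PARVB, which join integrin-linked kinase to actin, were at 0.113 ± 0.0418 and 0.258 ± 0.0990 FPKM in shCON and at 22.3 ± 4.88 and 26.2 ± 1.75 in shCEBPB. In OlaR they were at 0.106 ± 0.0459 and 0.325 ± 0.130 FPKM and in A2780 at 39.7 ± 3.28 and 20.7 ± 1.46. Lower in shCEBPB were the kinases SRC (-1.88 on the log2 scale) and PTK2B (-1.33), and higher in OlaR were TNS4 (5.89), a tensin, and TGFB1I1 (3.91), a paxillin relative.

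Basement membrane partners of laminins were called as 8 higher and 3 lower of 12 tested in shCEBPB minus shCON (6 and 1 at 2-fold) and 7 higher and 3 lower of 11 tested in OlaR minus A2780 (4 and 1 at 2-fold). In shCEBPB, COL7A1, the collagen of anchoring fibrils, rose from 1.17 ± 0.169 to 70.4 ± 17.6 FPKM, and PXDN, a peroxidase that cross-links collagen IV, was at 50.3 ± 3.93 FPKM and listed at 0 in all shCON libraries. NTN1, a netrin, fell (-1.97 on the log2 scale). In OlaR, COL4A1, a collagen IV chain, was at 12.1 ± 1.69 FPKM against 0.00808 ± 0.0146 in A2780, NTN4, a netrin that binds laminin γ chains, rose (4.33) and COL18A1 fell (-2.17). Non-integrin laminin receptors were called as 1 higher and 3 lower of 5 tested and 5 higher and 0 lower of 5 tested in the same comparisons. BCAM, a receptor of the laminin α5 chain, was at 149.6 ± 8.79 FPKM in shCON and 6.95 ± 1.34 in shCEBPB, and at 154 ± 15.0 in OlaR and 27.2 ± 2.04 in A2780. The syndecans SDC1 (-1.06 in shCEBPB minus shCON) and SDC4 (1.39 in OlaR minus A2780) differed by less.

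The other ligands of integrins were called as 8 higher and 6 lower of 14 tested and 6 higher and 8 lower of 14 tested, with 6 and 4 and then 6 and 7 at 2-fold. CDH1, E-cadherin and the ligand of αEβ7, was at 82.9 ± 4.25 FPKM in shCON and 0.655 ± 0.171 in shCEBPB, and at 99.5 ± 6.12 in OlaR and 0.0280 ± 0.0247 in A2780. THBS1, thrombospondin, had log2 fold changes of -3.59 in shCEBPB minus shCON and 6.07 in OlaR minus A2780. The fibrillins FBN1 (4.86) and FBN2 (2.74), which αv and α5 integrins bind, rose in shCEBPB. MFGE8, a ligand of αv integrins, was at 3099 ± 162 FPKM in A2780 and 14.9 ± 1.03 in OlaR, and SPP1, osteopontin, at 11.5 ± 1.10 and 0.0920 ± 0.0631.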

How the data were processed

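RNA of 31 libraries in 4 groups was analysed. As the study's methods state, mRNA-seq libraries were sequenced as 150-bp paired-end reads, mapped to hg38 with TopHat and counted with HTSeq, and edgeR was used by the authors. The values the authors deposited were FPKM, in 1 table. The tool and annotation behind the FPKM, and strand use in counting, are not given in the sources used here. Of 19225 entries, 4 with repeated symbols were left out. FPKM sums were 417556 to 454578 per library.

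Each comparison was fitted on its own 2 groups with limma 3.58.1 in R 4.3.3 (eBayes with a trend, two-sided, Benjamini-Hochberg adjustment over all genes tested) on log2(FPKM + 1), after a filter at 1 FPKM. For single members, an exact permutation test compared mean log2(FPKM + 1). The fitting step was tested on simulated data with few changed genes and independent libraries. That setting is unlike these data, in which far more genes were called, so it does not bear on the calls. Relative depth came from 383 low genes (94.4% of 4687 low values within 0.05 of a whole step). Positions are from GENCODE 44 on hg38, promoter windows from RefSeq. Members with a mean of at least 10 FPKM in a group are given with library values, those at 1 to under 10 with means, and in partner lists the 2 largest rises and falls called at 2-fold were named. A further gene with a matching symbol is not reported here. The members, lists and tests were chosen with earlier results of these data known. Replicate numbers did not pair libraries (mean r of deviations -0.138 in C13* and -0.228 in A2780). Alternatives were pseudocounts, filters, scalings, 1 fit of all groups, replicate blocks, ranges of library numbers, an exact rank test and leaving out each library.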

Additional observations from a re-analysis of the deposited data

Results flagged for a closer look

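In 2 of 74 groups of values checked, 1 library stood apart from the others of its group by Dixon's criterion, which flags about 5% of groups by chance. ITGA3 was at 28.2 FPKM in C13* shCEBPB replicate 3, below the 31.8 to 34.0 FPKM of the other 7 libraries, with a gap of 0.625 of the range (critical value 0.526). ITGAV was at 25.9 FPKM in C13* shCON replicate 4, above the 21.2 to 22.5 FPKM of the other 6 libraries, with a gap of 0.712 of the range (critical value 0.568). Leaving out either library changed no call of these genes in shCEBPB minus shCON.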

How the results depend on the processing

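In shCEBPB minus shCON, OlaR minus A2780 and A2780 minus shCEBPB, leaving out any 1 library changed no call of a member. Of the values under the other settings, 284 of 289, 288 of 290 and 275 of 276 kept direction and call. The exceptions in shCEBPB minus shCON were ITGA2 and LAMB1 (given above, and LAMB1 with quantile normalization) and ITGAE, which reversed to -0.14 within libraries 1 to 3 and was called with quantile normalization. Without a filter on low FPKM, the integrins called were 21 in place of 12 in shCEBPB minus shCON, 23 in place of 14 in OlaR minus A2780 and 21 in place of 12 in A2780 minus shCEBPB, and the laminins called in OlaR minus shCON were 4 in place of 2, since members under 1 FPKM were then tested. Rescaling by the median of ratios moved the median over all genes tested (log2) from -0.12 to -0.02 in OlaR minus A2780. Replicate numbers were also used as a block, since the labels number the libraries, although nothing says that same numbers were made together and no library set deviated with its number in every pair. With the replicate block, by label or by library number, the laminins called by limma in OlaR minus shCON were 0 in place of 2 (1 of 5 at an unadjusted p under 0.05) and the integrins called higher were 1 in place of 3, also by the exact rank test. In the other comparisons the replicate block moved no count of members called, in either direction, by over 1.5 times. With a filter at 5 FPKM, which tests fewer genes, the integrins called lower were 5 in place of 8 in shCEBPB minus shCON and 4 in place of 7 in A2780 minus shCEBPB.

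OlaR minus shCON held the small differences that changed direction. The laminins called there were 1 with 1 fit of all groups, within libraries 1 to 3 (LAMA5, which is neither of the 2 called over all libraries) and by the exact rank test, and 1 to 2 without single libraries (1 without OlaR replicate 5, shCON replicate 4 or shCON replicate 5). With pseudocounts of 0.1 and 0.01, 1 integrin (ITGA5) was called at 2-fold in place of 0. ITGAV reversed to -0.00349 with a common FPKM sum and to -0.12 within libraries 4 to 8, and ranged from -0.028 to 0.0394 without single libraries. ITGA1 reversed to 0.00583 with the median of ratios, 0.0118 and 0.0138 with the 2 replicate blocks, 0.00355 with the library range as a covariate and 0.0903 within libraries 1 to 3, and ranged from -0.0416 to 0.0247 without single libraries. LAMC1 reversed to 0.000702 with the median of ratios. Within libraries 1 to 3, ITGA2 (0.0117), ITGAE (-0.0845), ITGB5 (-0.0219), LAMA3 (0.00505), LAMA5 (-0.133), LAMB3 (-0.0308) and LAMC1 (0.0138) reversed, as did ITGB6 (-0.0280) within libraries 4 to 8. The cause was not tested. The absolute depth of each library is unknown beyond the lower limit of data per sample that the study states, so members under 1 FPKM carry no detection limit.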
